A study of Arabidopsis thaliana with 21 samples.

Results

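The genes described here are the 4 ferritins of Arabidopsis thaliana, FER1 (AT5G01600), FER2 (AT3G11050), FER3 (AT3G56090) and FER4 (AT2G40300), and the vacuolar iron transporter VIT1 (AT2G01770). They were taken by locus, and all 5 were found, with 1 model each, among the 26496 gene models with reads. The group was put together because FER2 had stood out between asil1-1 and Col-0 in an earlier analysis of these libraries, so that the values of that pair of genotypes are given below as a description, without a test.

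Ferritins are proteins whose subunits assemble into a hollow shell that holds iron in a mineral form that does not react with oxygen. In plants they are sent mainly to plastids. In Arabidopsis, FER2 is the ferritin known from seeds, while FER1, FER3 and FER4 are known from leaves and flowers, and FER4 has also been found in mitochondria. Most iron of the mature Arabidopsis seed lies in vacuoles, where VIT1 places it, in the cells around the embryo's future veins.

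RNA was measured by sequencing in 21 libraries of embryos dissected by hand at the late heart stage, with 3 biological replicates for each of 7 genotypes. The study followed the loss of ASIL1 and ASIL2, a pair of trihelix transcription factors. There were wild types of 2 ecotypes, written Col-0 for Columbia-0 and Ler for Landsberg erecta. The single mutants were asil1-1 and asil2-1, both in Columbia-0, and asil2-2, in Landsberg erecta. The double mutants were asil1-1 asil2-1, in Columbia-0, and asil1-1 asil2-2, whose background is labelled as mixed Columbia-0/Landsberg erecta, so that its ecotype differs from that of every other genotype. No group received a treatment. What the alleles carry and how many lines each stands for were not given in the sources used here, nor whether a replicate was 1 plant or a pool, so p-values measure the spread between these libraries.

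Totals ran from 1.49 to 8.19 M counts (M, 1000000) per library, and 18269 models, all 5 genes among them, passed the filter on low counts. ASIL1 was 1.28 to 5.75 CPM (counts per 1 M, on scaled library sizes) wherever asil1-1 was present, in 9 libraries, and 32.4 to 67.8 in the 12 others. ASIL2 was 0 to 13.5 CPM in the 6 libraries with asil2-2 and 37.6 to 61.5 in the 15 others. Those include asil2-1, at 41.8 ± 5.6 CPM against 51.2 ± 4.21 in Col-0 (SD, n = 3). A pair of libraries stood apart. In asil1-1 asil2-1 replicate 1, AT5G18610 took 45.7% of the counts and the median correlation with the other libraries was 0.75, and asil1-1 asil2-2 replicate 2 was the shallowest, with a median correlation of 0.851, against 0.934 to 0.967 elsewhere. Of the markers of other tissues, 11 of 13 seed coat genes had reads in all 21 libraries. The endosperm markers FIS2, FWA, PHE1, ZOU, EPR1 and ALE1 had reads in all 21 too, with ALE1 at 38.2 to 90.3 CPM. MEA had reads in 19 libraries, AGL62 in 15, IKU2 in 13 and MINI3 in 12. All 9 embryo markers, LEC1 and MP among them, had reads in every library.

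The 4 ferritin genes are alike in layout, with 8 exons each, and differ in place. In build TAIR10.1 of the genome, FER1 lies on chromosome 5 at 227953 to 230051 on the minus strand, FER2 on chromosome 3 at 3463477 to 3465506 on the plus strand, FER3 on chromosome 3 at 20813904 to 20816035 on the minus strand and FER4 on chromosome 2 at 16831109 to 16833294 on the minus strand. VIT1 lies on chromosome 2 at 334663 to 336462 on the minus strand, with 4 exons. The coding sequence of FER2 was identical at 71.5% of aligned bases to that of FER3, at 71.5% to that of FER4 and at 69.3% to that of FER1, while FER3 and FER4 shared 78%. A stretch of 60 coding bases is shown because it bears on whether reads of FER2 could be counted for another ferritin, or the reverse. Of the stretches without gaps and inside 1 exon in each ferritin, it is the one where FER2 is most like the others. It is exonic, from the RefSeq annotation, and capitals mark the bases that differ from FER2. It lies at chr3:3464408-3464467 (plus strand) in FER2, chr5:228941-229000 (minus) in FER1, chr3:20815271-20815330 (minus) in FER3 and chr2:16832517-16832576 (minus) in FER4.
FER2: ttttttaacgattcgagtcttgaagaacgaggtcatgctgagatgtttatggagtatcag
FER1: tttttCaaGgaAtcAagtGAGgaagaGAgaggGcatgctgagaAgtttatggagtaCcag
FER3: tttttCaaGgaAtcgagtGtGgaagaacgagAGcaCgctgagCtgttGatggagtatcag
FER4: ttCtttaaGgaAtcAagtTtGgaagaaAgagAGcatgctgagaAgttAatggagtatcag
Even here FER1 differed from FER2 at 12 bases, FER3 at 10 and FER4 at 11, and the longest run of identical bases that FER2 shared with any other ferritin was 17. FER3 and FER4 shared a run of 32. How the authors treated reads that match several places was not given in the sources used here.

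The 250 bases before each gene's start were searched on both strands for 4 motifs. These were the GT element GTGATT, of the kind trihelix factors are known to bind, the RY element CATGCA of seed genes, the G-box CACGTG, and the phosphate starvation element P1BS, GNATATNC. FER2 held 1 GT element, on the opposite strand at bases -176 to -171 from its start. FER3 and FER4 each held 1 G-box, at -76 to -71 and at -69 to -64. The 30 bases around each match are shown because these are the places a reader would compare, with the motif in capitals. They lie at chr3:3463289-3463318 (plus strand) for FER2, chr3:20816094-20816123 (minus) for FER3 and chr2:16833346-16833375 (minus) for FER4.
FER2: ggtctctcagtaAATCACgattgaaaacaa
FER3: atcgtatccatcCACGTGtcaacaatccac
FER4: atctcgtacgtaCACGTGtctctcatccgc
A GT element is common: 15.6% of 27443 promoters of the same length held 1, against 6.49% with a G-box, 8.43% with an RY element and 5.46% with P1BS. No RY element and no P1BS were found in the 5 windows. Of the 250 bases before FER2, 86 are coding and 163 other exonic sequence of its neighbour ENGase85B (AT3G11040), which runs 8 bases into FER2 on the same strand. These matches are descriptions of the letters, and binding was not measured.

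FER2 was low in the 4 genotypes without asil1-1 and several times higher in the 3 with it. In Col-0 it was 9.08, 6.98 and 8.35 CPM in replicates 1, 2 and 3, and in Ler 9.82, 9.4 and 8.51. In asil2-1 it was 7.44, 6.46 and 6.37 CPM, and in asil2-2 it was 9.66, 9.58 and 9.41. These 12 libraries all lay between 6.37 and 9.82 CPM. The values of asil1-1 were 35.5, 29.4 and 37.3 CPM, those of asil1-1 asil2-1 were 45.3, 30.9 and 29, and those of asil1-1 asil2-2 were 54.3, 41.5 and 43.4. The 9 libraries with asil1-1 all lay between 29 and 54.3 CPM, with no overlap with the others. In the whole table, 9 of 18269 models (0.0493%) had all 9 of these libraries above all 12 others. Ordered by mean, the genotypes were asil2-1 (6.76 ± 0.59 CPM, SD, n = 3), Col-0 (8.14 ± 1.06), Ler (9.25 ± 0.671), asil2-2 (9.55 ± 0.129), asil1-1 (34 ± 4.16), asil1-1 asil2-1 (35 ± 8.9) and asil1-1 asil2-2 (46.4 ± 6.9). The libraries of neighbours in that order overlapped, except between asil2-2 and asil1-1.

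**Figure D1:**
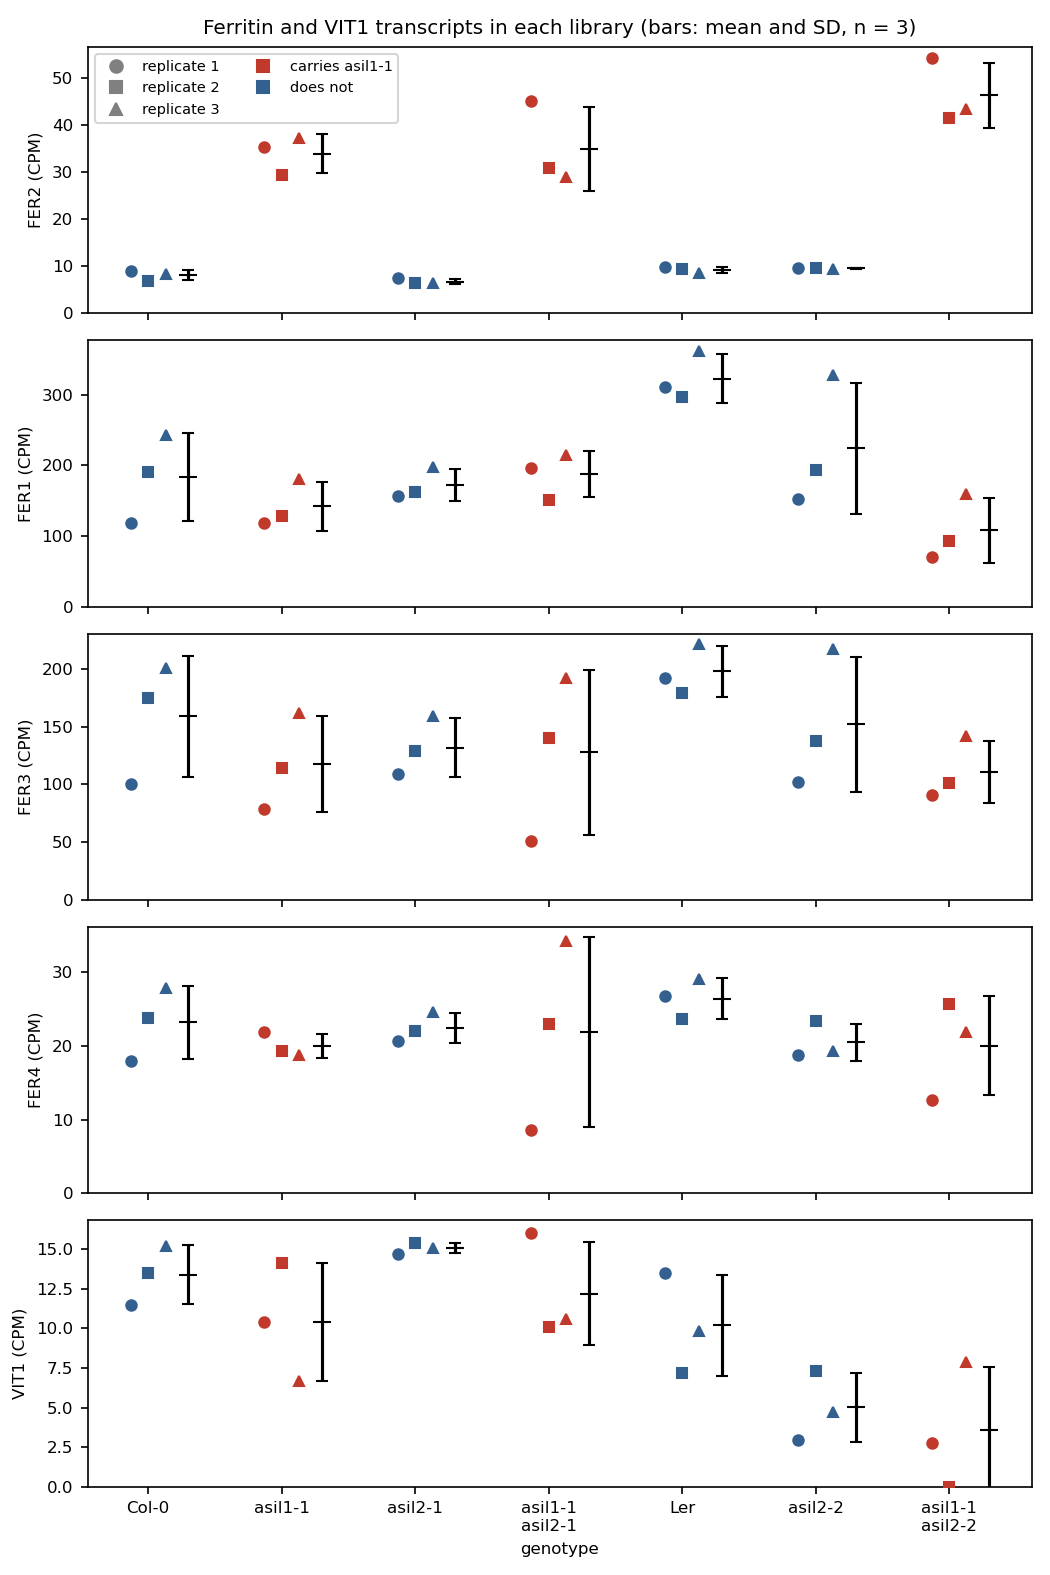
CPM of FER2, FER1, FER3, FER4 and VIT1 (vertical axes, each from 0) in the 3 libraries of each of 7 genotypes (horizontal axis), red for libraries that carry asil1-1 and blue for the others. Marker shapes give the replicate and black bars the mean and SD, the bar of VIT1 in asil1-1 asil2-2 being cut at 0. In FER2 the red points lie at 29 CPM and above and the blue points at 9.82 and below, while red and blue overlap in the other 4 genes.

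The comparisons whose groups leave out the libraries FER2 was picked from are those of each double mutant with its single asil2 mutant. Their p-values still rest on 1 estimate of the spread from all 21 libraries, which include those of asil1-1 and Col-0. Between asil1-1 asil2-1 and asil2-1, FER2 was the only 1 of the 5 genes called, at an adjusted p under 0.05 in edgeR's quasi-likelihood test, where 5 of 18269 models (0.0274%) were called. It rose by 2.35 ± 0.20 (log2 fold change ± SE, edgeR adjusted p = 6.78e-07). Without replicate 1 of the double mutant, which stands apart, the difference was 2.14. Between asil1-1 asil2-2 and asil2-2, FER2 was again the only one of the 5 called, against 446 models (2.44%). It rose by 2.29 ± 0.19 (edgeR adjusted p = 8.01e-08), in a comparison where the ecotype also differs. The difference between these changes was 0.06 ± 0.27 on the log2 scale (edgeR adjusted p = 0.948, 104 models called). The 6 double mutant libraries lay above the 6 asil2 libraries in FER2, as in 91 models (0.498%). When a model was fitted to the asil1-1 asil2-1 and asil2-1 libraries alone, the change was 2.39 and the call was lost (adjusted p = 0.207), with 0 models called. All 3 double mutant libraries lay above the 3 others in FER2, as in 7.7% of models.

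The comparisons that use Col-0 or asil1-1 libraries share them with the pair FER2 was picked from, so its values there are given as a description. Between asil1-1 and Col-0 the log2 difference of FER2 was 2.07 ± 0.20 (0.0328% of all models were called). In asil1-1 asil2-1 against Col-0 it was 2.09 ± 0.20 (0.0219%), and in asil1-1 asil2-2 against Col-0 and Ler, with the value nearer 0 taken, 2.33 ± 0.19 (0.279%). None of the other 4 genes was called in the last 2 of these comparisons.

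In asil2-1, ASIL2 RNA stayed at 41.8 ± 5.6 CPM, against 51.2 ± 4.21 in Col-0 (SD, n = 3). With an asil2 allele alone, the log2 difference of FER2 was 0.05 ± 0.20 in asil2-2 against Ler (edgeR adjusted p = 1), with none of the 5 genes called against a background of 0.0712%. It was -0.26 ± 0.21 in asil2-1 against Col-0, as a description, with none of the other 4 genes called against 0.0109%. On top of asil1-1, asil2-1 gave 0.02 ± 0.18, also as a description, with none of the other 4 called against 0.104%. Its sign turned without the libraries that stand apart (-0.19). Between the wild types FER2 differed by 0.19 ± 0.21 (Ler against Col-0).

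**Figure D2:**
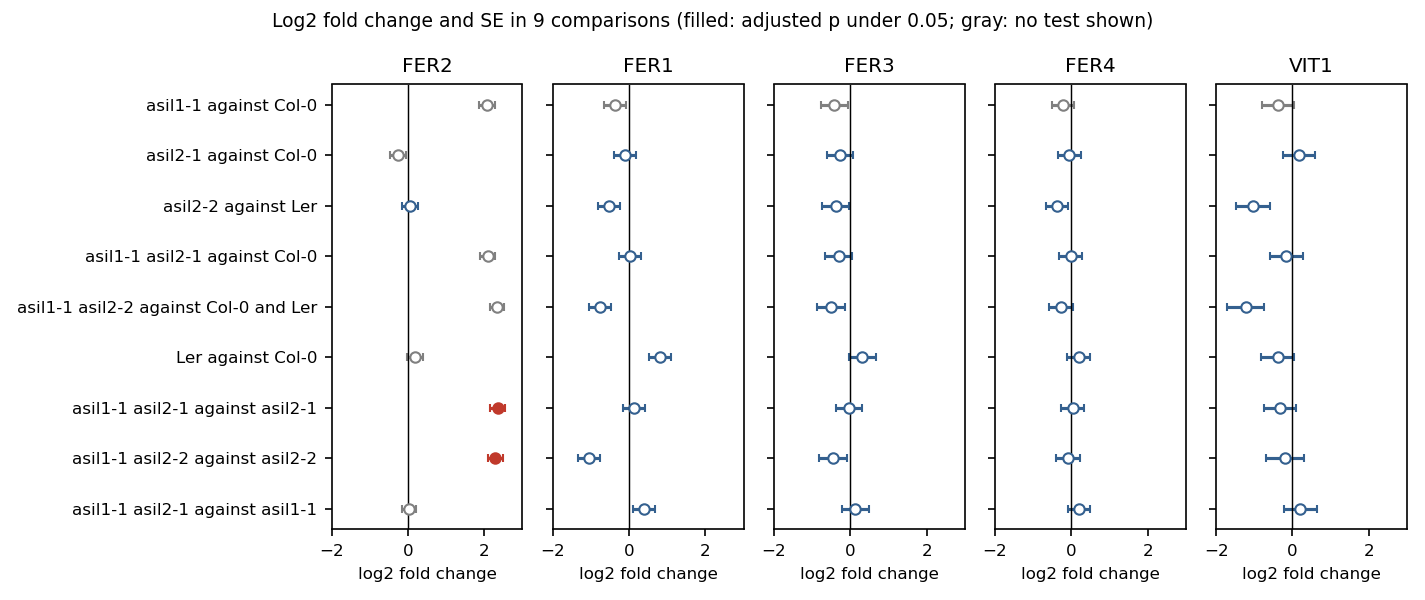
Log2 fold change (horizontal axis) and its SE for each of the 5 genes (panels) in 9 comparisons (rows). Filled red points had an edgeR adjusted p under 0.05, open blue points did not, and gray points are shown without a test (all 5 genes in asil1-1 against Col-0, and FER2 wherever Col-0 or asil1-1 libraries enter). The filled points are those of FER2 in the double mutants against their asil2 single mutants, at 2.35 and 2.29.

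In the bulk RNA of embryos, fewer cells of a type and less RNA per cell cannot be told apart. Summed levels of markers of the tissues around the embryo lay higher with asil1-1 too, with some overlap. The summed CPM of 13 seed coat markers was 230 to 302 in Col-0, 291 to 366 in asil1-1, 272 to 301 in asil2-1 and 292 to 415 in asil1-1 asil2-1. It was 214 to 286 in Ler, 167 to 279 in asil2-2 and 317 to 451 in asil1-1 asil2-2. The sum of 10 endosperm markers was 97.2 to 124 in Col-0, 120 to 163 in asil1-1, 116 to 148 in asil2-1 and 150 to 180 in asil1-1 asil2-1, and 78.8 to 118, 87 to 95.6 and 125 to 165 in Ler, asil2-2 and asil1-1 asil2-2. Of the seed coat markers, 11 of 13 were higher in asil1-1 asil2-1 than in asil2-1, with a median log2 difference of 0.53 and none called, and 11 of 13 in asil1-1 asil2-2 than in asil2-2, with a median of 0.64. Between asil1-1 and Col-0 6 of 13 were higher, with a median of -0.04. Of the 10 endosperm markers 7 were tested. In asil1-1 asil2-1 against asil2-1, 7 were higher and 0 lower, with a median of 0.35 and none called. In asil1-1 asil2-2 against asil2-2, 4 were higher and 3 lower, with a median of 0.69. Between asil1-1 and Col-0, 4 endosperm markers were higher and 3 lower, with a median of 0.05. Among all tested models the median was 0.02, -0.01 and -0.00 in these comparisons. Called in asil1-1 asil2-2 against asil2-2, where the ecotype also differs and 2.44% of all models were called, were TT10, PMEI6 and PHE1. TT10, a laccase of seed coat browning, gave 1.05 ± 0.19 (edgeR adjusted p = 0.00233). PMEI6, a mucilage pectin methylesterase inhibitor, gave 1.97 ± 0.50 (edgeR adjusted p = 0.0343, held in 19 of 28 alternatives). The endosperm MADS gene PHE1 gave 2.52 ± 0.63 (edgeR adjusted p = 0.0348, held in 23 of 28). TT10 and PMEI6 were also called in Ler against Col-0, in opposite directions. TT10 was at -1.13 ± 0.19 there (edgeR adjusted p = 0.000572) and PMEI6 at 3.41 ± 0.62 (edgeR adjusted p = 0.00117). The embryo markers went the other way from the seed coat and endosperm sums. Their sum was 885 to 975 CPM in Col-0, 795 to 904 in asil1-1, 884 to 920 in asil2-1 and 512 to 835 in asil1-1 asil2-1, and 855 to 969, 941 to 1011 and 601 to 865 in Ler, asil2-2 and asil1-1 asil2-2. Of 9 embryo markers, 8 were lower in asil1-1 asil2-1 than in asil2-1, with a median of -0.43 and none called, and 7 in asil1-1 than in Col-0, with a median of -0.17. All 9 were lower in asil1-1 asil2-2 than in asil2-2, with a median of -0.36, the root stem cell regulators PLT1 (-1.04 ± 0.19, edgeR adjusted p = 0.00249) and PLT2 (-1.10 ± 0.29, edgeR adjusted p = 0.0441, held in 9 of 28 alternatives) among them. The sums and medians of gene lists, here and below, include the libraries that stand apart, asil1-1 asil2-1 replicate 1 and asil1-1 asil2-2 replicate 2. Each double mutant holds 1 of them. The part of these tissues in the FER2 result was not tested.

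The 6 double mutant and 6 asil2 libraries lie outside the pair of genotypes FER2 was picked from, though earlier results of these data were known. In them the lowest double mutant library of FER2 was 3 times its highest asil2 library. That was the widest gap of the 91 models without overlap there, whose median ratio was 1.08 and whose next was 1.64. With the asil1-1 and wild-type libraries added, as a description that includes the libraries FER2 was picked from, 9 models were left. Its lowest library with asil1-1 was 2.95 times its highest library without it, and the next ratio was 1.28, in LRB3, a BTB/POZ protein. TBL38, of a family of cell wall acetylating proteins, had a ratio of 1.23. The other 6 were AT1G03760, AT2G21420, AT3G01790, AT3G09140, AT3G28700 and AtPOT1b, with ratios from 1.01 to 1.06.

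**Figure D3:**
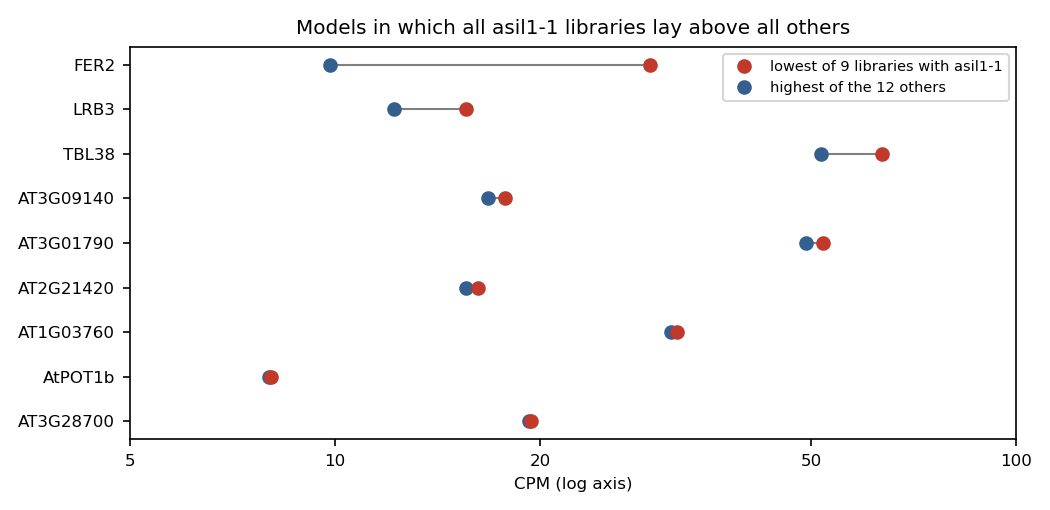
For each of the 9 models in which the 9 libraries carrying asil1-1 all lay above the 12 others, the lowest CPM with asil1-1 (red) and the highest CPM without it (blue), on a log axis. The gap of FER2 runs from 9.82 to 29 CPM, and in 6 of the other models the points nearly touch.

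Of the genes next to FER2, ENGase85B was tested and AT3G11060 did not pass the filter. ENGase85B, which encodes a cytosolic enzyme that trims sugar chains and ends inside the start of FER2, had means from 9.02 to 12.8 CPM and was called in none of the 9 comparisons. Its log2 difference was 0.11 ± 0.33 in asil1-1 asil2-1 against asil2-1 (edgeR adjusted p = 0.884) and 0.06 ± 0.32 in asil1-1 asil2-2 against asil2-2 (edgeR adjusted p = 0.958). FER2 and ASIL2 lie on the same chromosome, 1.24 Mb apart, and which ecotype's FER2 the asil1-1 asil2-2 libraries carry was not tested. FER4 overlaps AT2G40290 by 118 bases and VIT1 overlaps RR14, on the other strand, by 98, and strand was not given in the sources used here. Of the genes directly beside the 5, those that passed the filter were called in no comparison, and AT3G11060, AT2G40310 and AT2G01780 did not pass it.

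FER1, the ferritin best known for its rise with excess iron, was among the most abundant of the 5. It was 119, 191 and 243 CPM in Col-0, 118, 128 and 181 in asil1-1 and 156, 162 and 198 in asil2-1. It was 196, 151 and 215 CPM in asil1-1 asil2-1, 311, 297 and 362 in Ler and 152, 193 and 328 in asil2-2. In asil1-1 asil2-2 it was 70.5, 93.4 and 160 CPM. Ler was highest, each of its libraries above each of Col-0, as in 14.5% of models, and asil1-1 asil2-2 lowest. The log2 difference of Ler from Col-0 was 0.81 ± 0.29 and did not pass (edgeR adjusted p = 0.133, with 4.96% of models called and none of the 5 genes). It passed in 3 of 28 alternatives, which were the replicate block, limma-voom and the model of the compared groups alone. Those settings called 978, 2711 and 2150 of all models in this comparison, against 907 as reported. Over all 28 the adjusted p ran from 0.00605, under the block, to 0.498. Between asil1-1 asil2-2 and asil2-2 the log2 difference of FER1 was -1.04 ± 0.29 (edgeR adjusted p = 0.0645). Libraries of different replicate numbers overlapped, at 160 and 152 CPM, while within each number the double mutant was lower. Leaving out 1 library gave -1.47 to -0.66, and 7 of 28 alternatives passed the threshold, the replicate block among them. The block called 493 of all models in this comparison, against 446 as reported. Over all 28 the adjusted p ran from 0.00254, under the block, to 0.412. In asil1-1 asil2-1 against asil2-1 the log2 difference was 0.12 ± 0.29 (edgeR adjusted p = 0.843). These differences in the 2 backgrounds differed by 1.17 ± 0.41 (edgeR adjusted p = 0.33), which did not pass.

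FER3 was close to FER1 in level. Its means were 159 ± 52.6 CPM in Col-0, 118 ± 41.4 in asil1-1, 132 ± 25.2 in asil2-1 and 128 ± 71.4 in asil1-1 asil2-1 (SD, n = 3). They were 198 ± 21.9 in Ler, 152 ± 58.7 in asil2-2 and 111 ± 27 in asil1-1 asil2-2. The lowest library was asil1-1 asil2-1 replicate 1, at 51.1 CPM, and the highest Ler replicate 3, at 222, and genotypes overlapped widely. No comparison passed. The largest difference among the 8 tested was -0.51 ± 0.36, in asil1-1 asil2-2 against Col-0 and Ler (edgeR adjusted p = 0.548).

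FER4 varied less between genotypes than between the libraries of 1 of them. Its means ran from 20 ± 1.66 CPM in asil1-1 to 26.4 ± 2.73 in Ler (SD, n = 3). In asil1-1 asil2-1 the libraries were 8.58, 23 and 34.2 CPM, which holds both the lowest and the highest of all 21. No comparison passed, and the largest tested difference was -0.37 ± 0.29, in asil2-2 against Ler (edgeR adjusted p = 1), where the 3 mutant libraries lay below the 3 of Ler, as in 5.75% of models.

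VIT1, the transporter that loads iron into vacuoles, was lowest in the genotypes with asil2-2. It was 11.5, 13.5 and 15.2 CPM in Col-0, 10.4, 14.1 and 6.66 in asil1-1 and 14.7, 15.4 and 15.1 in asil2-1. In asil1-1 asil2-1 it was 16, 10.1 and 10.6 CPM, and in Ler 13.5, 7.2 and 9.81. In asil2-2 it was 2.98, 7.33 and 4.71 CPM, and in asil1-1 asil2-2 it was 2.76, 0 and 7.89. The 0 comes from the shallowest library, where 3 counts, the limit that a count of 0 allows, would be 1.97 CPM (counting error only). The 6 libraries with asil2-2 lay between 0 and 7.89 CPM and the 15 others between 6.66 and 16, so that they overlapped. The log2 difference was -1.03 ± 0.45 in asil2-2 against Ler (edgeR adjusted p = 1). In asil1-1 asil2-2 against Col-0 and Ler it was -1.23 ± 0.48 (edgeR adjusted p = 0.186), and leaving out 1 library gave -2.33 to -0.93. It passed in 1 of 28 alternatives, without replicate 3 of that double mutant (-2.33, edgeR adjusted p = 0.0167). Loss of ASIL1 beside asil2-1 gave -0.33 ± 0.42 (edgeR adjusted p = 0.701), and beside asil2-2 -0.20 ± 0.49 (edgeR adjusted p = 0.898).

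Levels were set against each other per kb of transcript, a length of 1.421 kb for FER1, 1.148 for FER2, 1.277 for FER3, 1.252 for FER4 and 0.902 for VIT1. The median over 21 libraries was 128 CPM per kb for FER1, 110 for FER3, 17.6 for FER4, 11.5 for VIT1 and 8.42 for FER2. FER1 and FER3 together made up 67.8 to 94.4% of the ferritin sum in every library. FER2 made up 2.79 ± 1.3% of the ferritin sum in Col-0, 2.42 ± 0.527% in asil2-1, 1.98 ± 0.316% in Ler and 3.01 ± 1.04% in asil2-2 (SD, n = 3). It made up 12.8 ± 2.83% in asil1-1, 11.7 ± 5.36% in asil1-1 asil2-1 and 19.4 ± 6.62% in asil1-1 asil2-2. By library the share was 1.61 to 4.29% without asil1-1 and 7.12 to 26.6% with it. FER2 exceeded FER4 per kb in 8 of the 9 libraries with asil1-1 and in 0 of the 12 others. The ferritin sum itself was 280 ± 88.2 CPM per kb in Col-0, 239 ± 56.5 in asil1-1 and 280 ± 67.1 in asil1-1 asil2-1, and 248 ± 36.6 in asil2-1. It was 412 ± 42.9 in Ler, 302 ± 110 in asil2-2 and 219 ± 52.8 in asil1-1 asil2-2. The double mutant with the largest FER2 share had the lowest mean sum, and the share is taken of that sum. Its sum was 178 to 279, against 376 to 460 in Ler. It overlapped asil2-2 (210 to 424), Col-0 (184 to 358) and asil1-1 (193 to 302). The Columbia-0 genotypes overlapped each other.

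**Figure D4:**
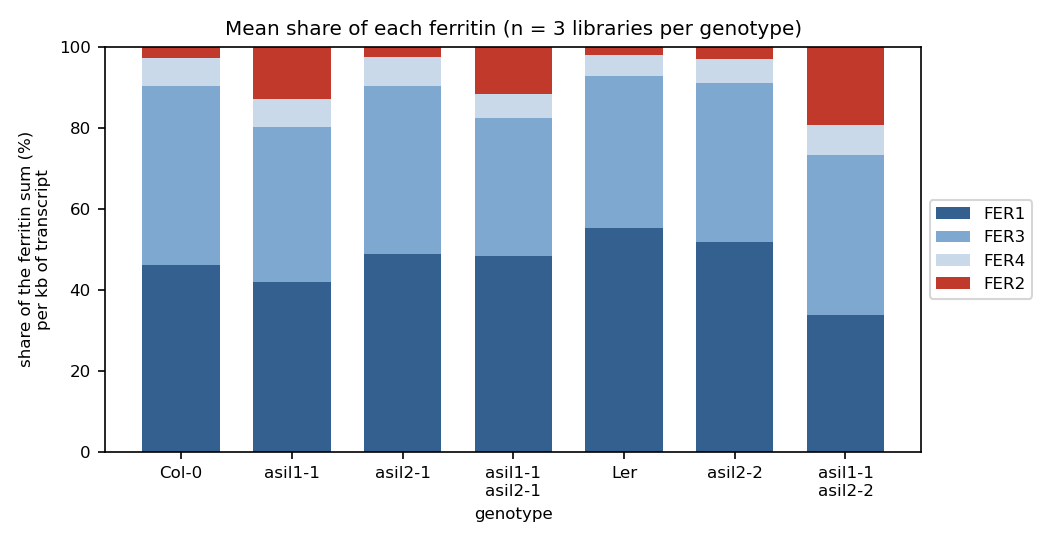
Mean share of each ferritin in the summed ferritin level per kb of transcript (vertical axis, percent) in 7 genotypes (horizontal axis, n = 3 libraries each). FER2, in red at the top, is 1.98 to 3.01% in the 4 genotypes without asil1-1 and 11.7 to 19.4% in the 3 with it, and FER1 and FER3 make up most of every bar.

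Across the 21 libraries, which share genotypes and depths, the log2 CPM of FER1 and FER3 had a Pearson r of 0.692 (0.894 over the 19 libraries that do not stand apart), and that of FER3 and FER4 0.754. FER2 had negative values with FER1 (-0.536), FER3 (-0.489) and FER4 (-0.389). The models most like FER2 were AT4G40000, an annotated methyltransferase (r = 0.875), AT1G03760, a prefoldin subunit family protein (0.874), AT3G01790, a ribosomal protein L13 family protein (0.862), AT1G07615, an Obg-type GTP-binding protein (0.857), and RUG3, an RCC1 family protein (0.844). Over the 19 libraries AT4G40000 alone stayed among the top 5, at 0.922. AT4G40000 ran from 33.9 to 57.9 CPM with asil1-1 and from 21.1 to 39.3 without it, so that it overlapped where FER2 did not. Most like FER1 were AT5G08520, AT1G20030 and RUXF (0.855, 0.852 and 0.832), and most like FER3 were EXL3, AT4G26670 and AT5G62300 (0.912, 0.897 and 0.89). FER4 was most like the catalase CAT1 (0.898), the aconitase family gene AT2G43090 (0.856) and AT5G63010 (0.85). VIT1 was most like EXPB3 (0.935), ASIL2 (0.926) and AT2G32280 (0.921). With ASIL2 the value was 0.795 over the 19 libraries. Over those, CAT1 alone of the models named for FER1, FER3, FER4 and VIT1 stayed in a top 3, and FER1 and FER3 entered each other's.

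Calls among other genes of iron handling, here and below, all came from asil1-1 asil2-2 against asil2-2, where 2.44% of all models were called. Whether such genes were called more or less often than other models was not tested. Of 13 genes that act on ferritin genes or on iron sensing, 11 were tested, and in asil1-1 asil2-1 against asil2-1 5 were higher and 6 lower, with a median log2 difference of -0.06 against 0.02 for all models and none called. In asil1-1 asil2-2 against asil2-2 1 fell, BTSL2, a ubiquitin ligase that restrains the iron deficiency response of roots, in a comparison with 2.44% of all models called. It went from 41.1 ± 5.46 to 17.1 ± 6.92 CPM (-1.18 ± 0.31, edgeR adjusted p = 0.0419). That call held in 10 of 28 alternatives, with an adjusted p of up to 0.173. Of 17 genes of the iron deficiency response only 5 were tested, and none was called in any comparison. In asil1-1 asil2-1 against asil2-1 3 were higher and 2 lower, with a median log2 difference of 0.93 against 0.02 for all models. Against Col-0, 5 were higher and 0 lower in that double mutant, with a median of 0.85. In asil1-1 asil2-2 against asil2-2 4 were higher and 1 lower, with a median of 0.36. The proton pump AHA2, whose sign turned with the scaling, was at 187 ± 46.3 CPM in asil2-1 and 184 ± 25.2 in asil1-1 asil2-1. The coumarin exporter ABCG37 was at 3.92 ± 0.7 and 7.89 ± 6.02 CPM (0.93 ± 0.51, edgeR adjusted p = 0.371). Its difference equals the median of the 5 tested genes there and ran from 0.18 to 1.24 over 28 alternatives, so that this median can rest on 1 unsteady gene.

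Of 19 genes of vacuolar and plastid iron transport, 12 were tested, and none was called in any comparison. In asil1-1 asil2-1 against asil2-1 6 were higher and 6 lower. The VIT1-like transporter VTL1 was at 9.94 ± 5.57 CPM in asil2-1 and 23.4 ± 11.2 in the double mutant (1.20 ± 0.42, edgeR adjusted p = 0.213), and YSL4 and FPN3 gave -0.44 ± 0.18 and -0.39 ± 0.18. Of 13 genes of iron movement to the seed, 8 were tested, and 1 was called, in asil1-1 asil2-2 against asil2-2, where 2.44% of all models were. YSL2, a carrier of metals bound to nicotianamine, rose from 20.4 ± 2.97 CPM in asil2-2 to 46.4 ± 11 in asil1-1 asil2-2 (1.15 ± 0.28, edgeR adjusted p = 0.0289), and the call held in 24 of 28 alternatives. The summed seed coat markers were 167 to 279 CPM in asil2-2 and 317 to 451 in the double mutant, and their part was not tested. All 22 genes of iron-sulfur cluster assembly were tested and none was called. In asil1-1 asil2-1 against asil2-1 7 were higher and 15 lower, with a median of -0.05, among them HCF101 (-0.62 ± 0.24), AE7 (0.50 ± 0.31) and the frataxin gene FH (0.48 ± 0.44).

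No gene of seed maturation was called in asil1-1 asil2-1 against asil2-1 (0.0274% of all models called) or in asil1-1 asil2-2 against asil2-2 (2.44%). Of 20 such genes, 13 were tested, and 4 were higher and 9 lower in asil1-1 asil2-1 than in asil2-1, with a median of -0.25, and 3 higher and 10 lower in asil1-1 asil2-2 than in asil2-2, with a median of -0.12. None was called in either. The storage globulin CRA1 was called in Ler against Col-0 alone among the 9 comparisons, and 4.96% of all models were called there. It was at 3.75 ± 1.01 CPM in Ler against 9.63 ± 0.602 in Col-0 (-1.36 ± 0.39, edgeR adjusted p = 0.0449). That call held in 12 of 28 alternatives.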

How the data were processed

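The deposited files hold raw read counts per gene model, which the authors made with Bowtie 0.12.7, edgeR 3.0.8 and build TAIR10, per the submitters' processing notes, which give no role or order. The counting rule and strand were not given in the sources used here. Per the labels' protocols, libraries came from total RNA with a Nugen Ovation kit. The tables were joined, with 0 for unlisted models, and 26100 of 26496 loci matched TAIR10.1. None of 21 replicate pairs was identical.

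The 21 libraries entered 1 model of 7 groups in edgeR 4.0.16 (R 4.3.3), scaled by TMM, after filterByExpr by group (minimum count 10, total 15). The quasi-likelihood test gave p-values, adjusted by Benjamini-Hochberg over 18269 models. The method was run on simulated counts with planted changes. Outside those changes all simulated libraries had the same mean profile, so a library that stands apart was not covered. SEs are approximate. Alternatives were DESeq2 1.42.0, limma 3.58.1 (voom with library weights), DESeq2's size factors (RLE) in edgeR, no filter, a replicate block, models of the compared groups alone, and leaving out libraries. Sequences and coordinates were read from the RefSeq genome with Python 3.11.15.

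The members and gene lists were chosen with earlier results of these data known. Named were the 5 genes, called genes of each list (otherwise up to 3 with the largest difference in asil1-1 asil2-1 against asil2-1 and a mean log2 CPM of 2 or more), and those most correlated with each member. The 9 models of the gap comparison were named after their values were seen.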

Additional observations from a re-analysis of the deposited data

How the results depend on the processing

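Over 28 alternatives in each comparison, the rise of FER2 in the double mutants against their asil2 single mutants was called in all but the model of asil1-1 asil2-1 and asil2-1 alone, which called no member (0, FER2 at 2.39, adjusted p = 0.207). Members called also went to 0 in such a model against Col-0, whose libraries FER2 was picked with. Those models called 0 of all genes, against 5 and 4 called with 21 libraries. The cause was not tested. Leaving out 1 library gave 2.14 to 2.46 for FER2 against asil2-1 and 2.15 to 2.35 for asil1-1 asil2-2 against asil2-2. With FER1 added, members called rose to 2 in asil1-1 asil2-2 against asil2-2 under DESeq2, limma-voom, no filter and the replicate block, and were 1 to 2 without 1 library. Of all models, DESeq2 called 1023 there, limma-voom 844, no filter 401 and the block 493, against 446 as reported. In asil1-1 asil2-2 against Col-0 and Ler, members called were 2 under the block, which called 70 of all models against 51 as reported. Without 1 library they were 1 to 3 (3 with VIT1, without asil1-1 asil2-2 replicate 3). In Ler against Col-0, members called were 1, FER1, under the block, limma-voom and the models of the compared groups. Those called 978, 2711 and 2150 of all models, against 907 as reported. 

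Same-numbered libraries had deviations correlated at -0.122 to 0.334 (63 pairs, median 0.0756, 21 over 0.1), against a median of -0.0211 and 4 over 0.1 in 126 pairs of other numbers, and 17 of 21 libraries were closest to their own number. As not every pair was over 0.1 and the labels name no shared batch, the numbers were not taken as pairs. Under the replicate block FER1 had an adjusted p of 0.00605 in Ler against Col-0, 0.0251 in asil1-1 asil2-2 against Col-0 and Ler and 0.00254 against asil2-2, and FER2 kept its calls.

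All reversed signs were of differences that were not called in either fit. In asil1-1 asil2-1 against Col-0, FER1 was -0.01 with no filter and -0.01 without the libraries that stand apart, FER3 0.04 by limma-voom and 0.07 without those libraries, and FER4 0.27 and 0.31. Against asil2-1, FER3 was 0.24 by limma-voom and 0.33 without those libraries, and FER4 -0.03 under the block. AHA2, an iron list gene, was 0.00 with DESeq2's size factors in edgeR, 0.00 in DESeq2, 0.15 by limma-voom, 0.06 without those libraries and -0.19 to 0.17 without 1 library. Against asil1-1, FER2 was -0.04 with no filter, -0.15 by limma-voom and -0.19 without those libraries, where VIT1 was -0.01. VIT1 in asil1-1 asil2-2 against asil2-2 was 0.12 without them. Leaving out 1 library at a time gave, in asil2-1 against Col-0, -0.33 to 0.15 for FER1 and -0.20 to 0.10 for FER4, and in asil2-2 against Ler -0.01 to 0.09 for FER2. It gave, in asil1-1 asil2-1 against Col-0, -0.22 to 0.26 for FER1, -0.72 to 0.06 for FER3 and -0.49 to 0.31 for FER4, and against asil2-1 -0.01 to 0.25, -0.45 to 0.33 and -0.44 to 0.36. Against asil1-1 it gave -0.19 to 0.13 for FER2, -0.29 to 0.48 for FER3, -0.27 to 0.52 for FER4 and -0.05 to 0.49 for VIT1. In asil1-1 asil2-2 it gave -0.43 to 0.01 for FER4 against Col-0 and Ler, and -0.25 to 0.19 for FER4 and -1.29 to 0.19 for VIT1 against asil2-2.

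Counts of called models varied more, from 2 to 75 (6 as reported) in asil1-1 against Col-0, 0 to 16 (2) in asil2-1 against Col-0, 5 to 48 (13) in asil2-2 against Ler and 550 to 2711 (907) in Ler against Col-0. They ran from 0 to 495 (4), 0 to 656 (5) and 0 to 466 (19) in asil1-1 asil2-1 against Col-0, asil2-1 and asil1-1, and from 26 to 242 (51) and 150 to 1106 (446) in asil1-1 asil2-2 against both wild types and asil2-2. Depth limits VIT1 most, with 0 to 115 counts in a library.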

Other observations

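FER1 and FER3 varied with the replicate number across genotypes, which the labels do not tie to a batch. In 7 of 7 genotypes the library numbered 3 had the highest CPM of FER1, and the same held for FER3 in 7 of 7. The count was 4 for FER4, 2 for VIT1 and 1 for FER2. This was noticed after the values were seen and was not tested.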
